A study of Mus musculus with 6 samples.

Results

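The 33 Hox genes described here, of 18193 genes named on the arrays, were those with at least 1 probe set whose only symbol was Hoxa, Hoxb, Hoxc or Hoxd followed by digits. A probe set is a group of short oligonucleotides on the array that together give 1 value for a transcript. Hox genes had 48 such probe sets, and the brightest probe set of a gene, by its mean over 6 arrays, represented it. They covered 9 genes of the Hoxa cluster, 9 of Hoxb, 7 of Hoxc and 8 of Hoxd. The selection took only probe sets with a single symbol, and Hox genes without one were not analysed here.

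The cells were undifferentiated mouse embryonic stem (ES) cells of the line EBRTcH3 (EB3), kept in leukemia inhibitory factor (LIF). All 3 clones (A1, B3 and C6) carried the human GTF2I open reading frame with a 3xFLAG tag and without untranslated regions, at the Rosa26 locus behind a promoter that tetracycline shuts off. Each clone gave 1 uninduced array (tetracycline present, 0 h) and 1 induced array (24 h after tetracycline removal), so every group held 3 arrays and every replicate was a different clone. GTF2I encodes TFII-I, a transcription factor of the region deleted in Williams-Beuren syndrome. The sample titles name GTF2I, whereas a characteristics field names GTF2IRD2, and the titles were followed. An effect of the transgene and an effect of tetracycline removal cannot be told apart in these groups. The probe sets were not placed against the human reading frame, so no value here checks the induction.

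All 12 embryonic stem cell markers were far above the array medians, from 10.12 (Fgf4) to 14.20 (Dppa5a) on the log2 scale. The mean of the 12 lay between 11.96 and 12.07 on the uninduced arrays and between 11.87 and 12.11 on the induced ones. Of 13 fibroblast and feeder markers, 9 were above each array's lower quartile and 0 reached a mean of 8, with Col3a1 at 2.58, Twist2 at 3.38 and Lum at 3.50 below the lower quartile of every array. The brightest member of this list averaged 6.69, and 2 members were above the median of every array. The mean of this list lay between 4.33 and 4.40 (uninduced) and between 4.30 and 4.43 (induced). Clone A1 ran against the others: over all 45037 probe sets its induced minus uninduced differences correlated at r = -0.39 with those of B3 and -0.48 with those of C6, while B3 and C6 correlated at 0.46. These correlations are across probe sets, which are not independent replicates. The labels of the A1 arrays were followed, and they could not be checked against the transgene. If those 2 labels were exchanged, every difference of A1 would change sign, and the means and same-way counts that include A1 would change with it. Differences on induction are therefore also given over B3 and C6 alone.

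Hox genes encode homeodomain transcription factors that tell cells where they lie along the head-to-tail axis. They stand in 4 clusters on different chromosomes, numbered by position from 1 to 13. In the embryo the low numbers are active earlier and nearer the head, and the high numbers later and nearer the tail. In ES cells the clusters are known to be held largely silent by Polycomb proteins while also carrying marks of active promoters, and retinoic acid is a classical signal that opens them. Hox proteins bind DNA with partners of the TALE class (Pbx, Meis and Pknox), and the caudal factors (Cdx) are among their upstream activators.

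Promoters of 3 genes at the ends of the signal range are printed so that the base composition behind these genes can be read. Each is the RefSeq (GRCm38.p6) sequence of the 250 bases before the transcription start, 5′ to 3′ on the strand of the gene, with every CpG in capitals. Hoxa7 had the highest signal of the family. Hoxa5 was among the brightest by one probe set and dim by another. Hoxd10 was among the dimmest.
Hoxa7 (chr6:52218574-52218823, minus strand): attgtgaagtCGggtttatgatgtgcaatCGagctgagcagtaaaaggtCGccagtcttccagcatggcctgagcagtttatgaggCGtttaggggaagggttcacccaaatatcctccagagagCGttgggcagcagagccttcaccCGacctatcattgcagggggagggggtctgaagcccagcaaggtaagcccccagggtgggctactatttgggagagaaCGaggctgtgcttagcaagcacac
Hoxa5 (chr6:52204588-52204837, minus strand): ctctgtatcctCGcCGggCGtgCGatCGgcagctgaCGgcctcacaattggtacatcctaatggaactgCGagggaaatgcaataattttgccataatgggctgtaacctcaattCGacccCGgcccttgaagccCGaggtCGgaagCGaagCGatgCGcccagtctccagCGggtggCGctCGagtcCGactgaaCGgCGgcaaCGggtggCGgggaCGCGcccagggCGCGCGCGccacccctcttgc
Hoxd10 (chr2:74691641-74691890, plus strand): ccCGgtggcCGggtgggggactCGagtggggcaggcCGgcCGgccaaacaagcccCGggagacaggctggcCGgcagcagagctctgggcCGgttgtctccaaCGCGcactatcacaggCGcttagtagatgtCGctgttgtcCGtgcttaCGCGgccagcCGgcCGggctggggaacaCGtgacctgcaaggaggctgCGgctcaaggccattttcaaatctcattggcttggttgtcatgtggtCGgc
The capitals mark 7 CpG in Hoxa7, 28 in Hoxa5 and 20 in Hoxd10, so the brightest of the 3 held the fewest. G and C made up 54.8%, 63.6% and 65.6% of the bases.

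RefSeq gave promoter windows for 22 Hox genes, 24 windows of 300 bases in all (250 before and 50 after the start), of which 21 belonged to 19 of the measured genes. They held a median of 14.5 CpG (range 4 to 45), against 7 in all 32851 windows and 1 in 944 windows of olfactory receptor genes, a family used by sensory neurons. At least 10 CpG stood in 70.8% of Hox windows, 43.5% of all windows and 0.212% of olfactory receptor windows. The Hoxa13 window held the most CpG (45), and Hoxa9 had 4. Next, 3 short motifs were searched on both strands. The E-box CACGTG, one of the elements TFII-I has been described to bind, was in 20.8% of Hox windows and 7.15% of all windows. These were 5 of 24 Hox windows, all in the Hoxd cluster (Hoxd13, Hoxd11, Hoxd10, Hoxd4 and Hoxd1). No window of Hoxa, Hoxb or Hoxc held it, and Hoxd4 was not among the measured genes. Hoxb had windows only for Hoxb8, Hoxb4 and Hoxb1, and Hoxc only for Hoxc4, so little of these clusters was read. The CCAAT box was in 62.5% against 37.4%, and TATAAA in 16.7% against 13.6%. These shares describe the letters of the windows, and a match is not a binding site. No test was made of them.

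The signal of the Hox genes was low but not uniformly so. Levels are robust multiarray average (RMA) values on the log2 scale. The files hold no detection calls, so each value was set against the lower quartile of its own array, which lay between 3.66 and 3.73 over the 6 arrays, and the median, between 5.06 and 5.11. Of the 33 genes, 21 (63.6%) were above the lower quartile on all 6 arrays, 9 (27.3%) were below it on all 6 and 3 were mixed. Among all 18193 genes, 82.2% were above it on every array. Only 8 Hox genes (24.2%) were above the median on all arrays, against 61.1% of all genes, and 0 reached a mean of 8, against 30.2%. Fewer cells with a transcript and less transcript per cell cannot be told apart in RNA from whole cultures. Probe sets differ in how strongly they bind, so the order of levels between genes is an order of signals, not of RNA amounts.

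By cluster, 5 of 9 Hoxa, 6 of 9 Hoxb, 5 of 7 Hoxc and 5 of 8 Hoxd genes were above the lower quartile on all arrays. By position, the counts were 4 of 7 at positions 1 to 3, 8 of 12 at positions 4 to 8 and 9 of 14 at positions 9 to 13. The median signals were 4.03, 4.33 and 4.26 in these zones. Neighbours in a cluster could lie far apart, as the plot of levels by position shows. Hoxa9 averaged 6.41 and Hoxa10 3.17, Hoxd9 averaged 6.17 and Hoxd10 2.71, and Hoxc9 averaged 6.87 between Hoxc8 at 2.57 and Hoxc10 at 2.83. On these probe sets the gene at position 9 was above the median of every array in 3 clusters and the one at position 10 below every lower quartile. For Hoxa this held only on the brightest probe set, since the other probe set of Hoxa9 averaged 3.18, below every lower quartile like Hoxa10.

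**Figure D1:**
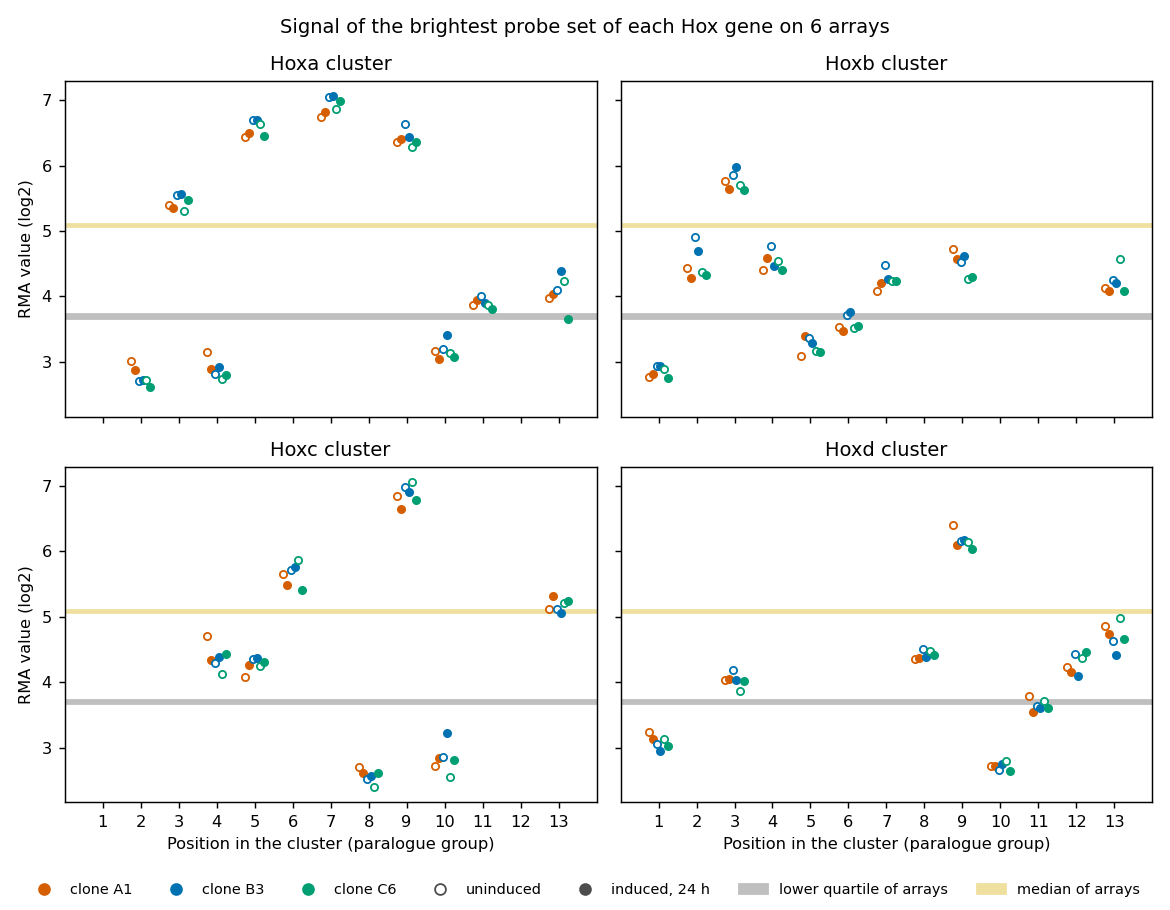
RMA value (log2) of the brightest probe set of each of 33 Hox genes against its position in the Hoxa, Hoxb, Hoxc and Hoxd clusters, with 1 point per array, coloured by clone, open for uninduced and filled for induced arrays. The grey and yellow bands span the lower quartiles (3.66 to 3.73) and medians (5.06 to 5.11) of the arrays, and on these probe sets the genes at position 9 of Hoxa, Hoxc and Hoxd lie above the medians and those at position 10 below the lower quartiles, although the other probe set of Hoxa9 averaged 3.18, near Hoxa10.

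The 8 genes above every array's median were Hoxa3, Hoxa5, Hoxa7, Hoxa9, Hoxb3, Hoxc6, Hoxc9 and Hoxd9. Values below are in the order A1, B3, C6. Hoxa7, a gene of the trunk, read 6.74, 7.05 and 6.86 on the uninduced and 6.81, 7.06 and 6.98 on the induced arrays (mean 6.92). Hoxc9, which shapes motor neuron columns, read 6.84, 6.98 and 7.06 uninduced and 6.65, 6.90 and 6.79 induced (mean 6.87). In Hoxa7 both arrays of A1 were the lowest, and the groups overlapped in both genes. Hoxa5, needed for lung and cervicothoracic skeleton, read 6.44, 6.69 and 6.64 uninduced and 6.50, 6.69 and 6.46 induced. Hoxa9, known from blood progenitors, gave 6.36, 6.63 and 6.28 without and 6.41, 6.44 and 6.35 with induction. The uninduced array of B3 was the highest of the 6 for both, and the groups overlapped. Hoxd9, active in the limb and trunk, stood at 6.40, 6.17 and 6.15 in uninduced and 6.09, 6.17 and 6.04 in induced cells, with uninduced A1 the highest. Among all probe sets the means of these 5 genes lay between the percentiles 63.8 (Hoxd9) and 71.1 (Hoxa7).

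The other 3 genes above the median lay closer to it. Hoxb3, a hindbrain gene, read 5.76, 5.85 and 5.71 uninduced and 5.64, 5.97 and 5.62 induced. Hoxc6, a thoracic gene, read 5.65, 5.71 and 5.87 uninduced and 5.49, 5.76 and 5.41 induced, with the lowest value on the induced array of C6. Hoxa3, required for thymus and parathyroid, read 5.40, 5.55 and 5.31 uninduced and 5.35, 5.57 and 5.48 induced. In all 3 the groups overlapped. Hoxc13, needed for hair and nails, was above the median on 5 of 6 arrays, at 5.12, 5.12 and 5.21 uninduced and 5.33, 5.05 and 5.24 induced, the exception being the induced array of B3.

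By their brightest probe sets, a further 12 genes lay between the lower quartile and the median on every array. Hoxd13, a gene of the digits, read 4.86, 4.63 and 4.98 on uninduced and 4.74, 4.41 and 4.66 on induced arrays. Its neighbour Hoxd12 read 4.23, 4.44 and 4.37 uninduced and 4.16, 4.10 and 4.47 induced. In both, the induced array of B3 was the lowest. Hoxb2, which acts in the hindbrain, read 4.44, 4.91 and 4.37 uninduced and 4.29, 4.69 and 4.33 induced, with both arrays of B3 above the other 4. Hoxb4, known for expanding blood stem cells, read 4.40, 4.77 and 4.55 uninduced and 4.59, 4.47 and 4.41 induced, and Hoxb9, which patterns the ribs, read 4.72, 4.53 and 4.26 uninduced and 4.58, 4.61 and 4.30 induced. For Hoxb9 both arrays of C6 were the lowest. Hoxb7 gave 4.09, 4.48 and 4.23 in uninduced and 4.20, 4.27 and 4.24 in induced arrays. Hoxb13, the most posterior gene of its cluster and known from the prostate, gave 4.13, 4.25 and 4.57 uninduced and 4.08, 4.20 and 4.09 induced. One array stood out in the last, the uninduced array of C6.

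Hoxc4 read 4.70, 4.29 and 4.13 uninduced and 4.34, 4.39 and 4.43 induced, and its values spread over more than those of its neighbour Hoxc5, which read 4.08, 4.35 and 4.25 uninduced and 4.27, 4.37 and 4.32 induced. Hoxd8 gave 4.35, 4.50 and 4.48 without and 4.37, 4.39 and 4.42 with induction. Hoxd3, which patterns the first neck vertebrae, gave 4.04, 4.20 and 3.87 uninduced and 4.05, 4.03 and 4.02 induced. For all 4 the groups overlapped. Hoxa11, of forelimb, kidney and uterus, was the dimmest gene that stayed above the lower quartile throughout, at 3.87, 4.01 and 3.87 uninduced and 3.95, 3.91 and 3.80 induced.

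The lower quartile was straddled by 3 genes. Hoxa13, needed for digits and the urogenital tract, was above it on 5 arrays, at 3.97, 4.10 and 4.23 uninduced and 4.04, 4.38 and 3.65 induced, and below it on the induced array of C6. Hoxd11 was above it on 2 arrays, at 3.79, 3.63 and 3.71 uninduced and 3.55, 3.61 and 3.61 induced. Hoxb6 was above it on 1 array, at 3.54, 3.71 and 3.52 uninduced and 3.47, 3.76 and 3.56 induced.

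The 9 genes below the lower quartile on all arrays came from every cluster. They were Hoxc8 (mean 2.57, the lowest of the family), Hoxd10 (2.71), Hoxa2 (2.78), Hoxc10 (2.83), Hoxb1 (2.85), Hoxa4 (2.89), Hoxd1 (3.09), Hoxa10 (3.17) and Hoxb5 (3.24). Hoxb1 and Hoxa2, genes of the hindbrain and the second pharyngeal arch, stand at the end of the clusters that opens first in the embryo, and both were dim here. That end was not dim throughout, since 4 of 7 genes at positions 1 to 3 were above the lower quartile on all arrays. Hoxb1 read 2.77, 2.95 and 2.90 uninduced and 2.81, 2.95 and 2.76 induced, and Hoxa2 3.01, 2.71 and 2.72 uninduced and 2.87, 2.73 and 2.61 induced. The means of these 9 genes lay between the percentiles 2.25 (Hoxc8) and 15.1 (Hoxb5) of all probe sets.

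For comparison, 2 other groups were read in the same way, as a description with no test. Of 45 genes of other homeodomain and paired-box families (Dlx, Lhx, Nkx, Pax, Irx and the sine oculis homeobox genes), 34 (75.6%) were above the lower quartile on all arrays and 13 (28.9%) above the median, with a median signal of 4.67 against 4.27 for the Hox genes. Of 38 olfactory receptor genes, 14 (36.8%) and 2 (5.26%) were, with a median of 3.67. The highest olfactory receptor signal was 5.82. By mean, 5 Hox genes, 6 genes of the other homeodomain and paired-box families and 0 olfactory receptor genes were at 6 or more, and 0 of all 3 groups were at 8 or more.

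**Figure D2:**
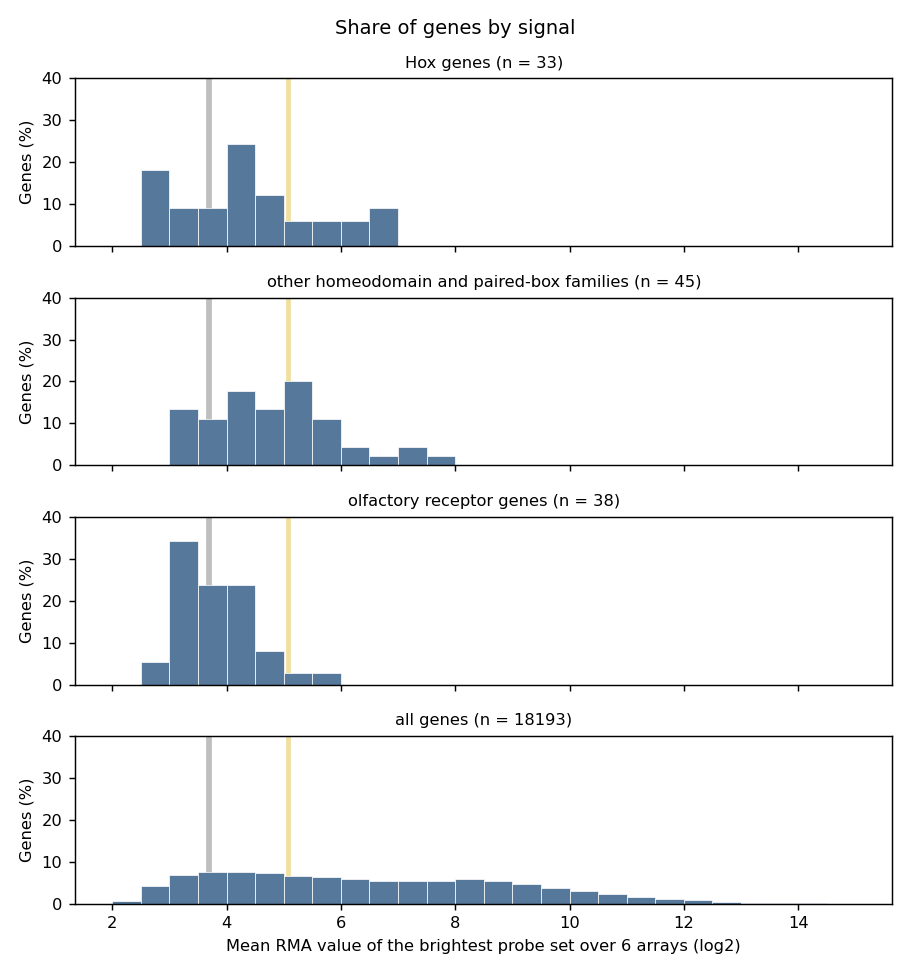
Percent of genes in each bin of 0.5 of the mean RMA value (log2) over 6 arrays, for 33 Hox genes, 45 genes of other homeodomain and paired-box families, 38 olfactory receptor genes and all 18193 genes, with the bands of the lower quartiles (grey) and medians (yellow) of the arrays. The Hox genes end below 7, at a highest mean of 6.92, while all genes reach 14.51.

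The level assigned to a Hox gene depended on which probe set was read. Of the 33 genes, 22 had 1 probe set and 11 had several, and in these 11 the brightest and dimmest differed by a median of 1.43 on the log2 scale (range 0.01 to 3.39). Hoxa5 read 6.57 on one probe set and 3.18 on the other, and Hoxa9 6.41 and 3.18. The 4 probe sets of Hoxa3 averaged 5.44, 3.97, 3.59 and 2.93, and the pair of Hoxb3 5.76 and 3.56. In each of these 4 genes the gap was over 2, and the dimmest probe set lay below the lower quartile while the brightest lay above the median. By mean, 7 of the 11 genes had the brightest probe set above and the dimmest below every lower quartile. Besides these 4, they were Hoxb4 (4.53 and 3.10), Hoxc5 (4.27 and 2.96) and Hoxd8 (4.42 and 3.24). The probe sets of Hoxd13 (4.71 and 4.63) and of Hoxa4 (2.89 and 2.87) gave nearly the same value.

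The brightest probe sets of Hoxa5 and Hoxc6 carry the suffix _x_at, which Affymetrix gives to probe sets with probes that match other transcripts too, so these signals may hold more than 1 transcript. For Hoxc6 a probe set without that suffix was almost as bright, at 5.55 against 5.65. With the dimmest probe set in place of the brightest, 13 genes in place of 21 were above the lower quartile on all arrays. Without any _s_at or _x_at probe set the count was 20. A gene with several probe sets has more chances to be bright: 9 of the 11 genes with several were above the lower quartile on all arrays, and 12 of the 22 with 1.

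**Figure D3:**
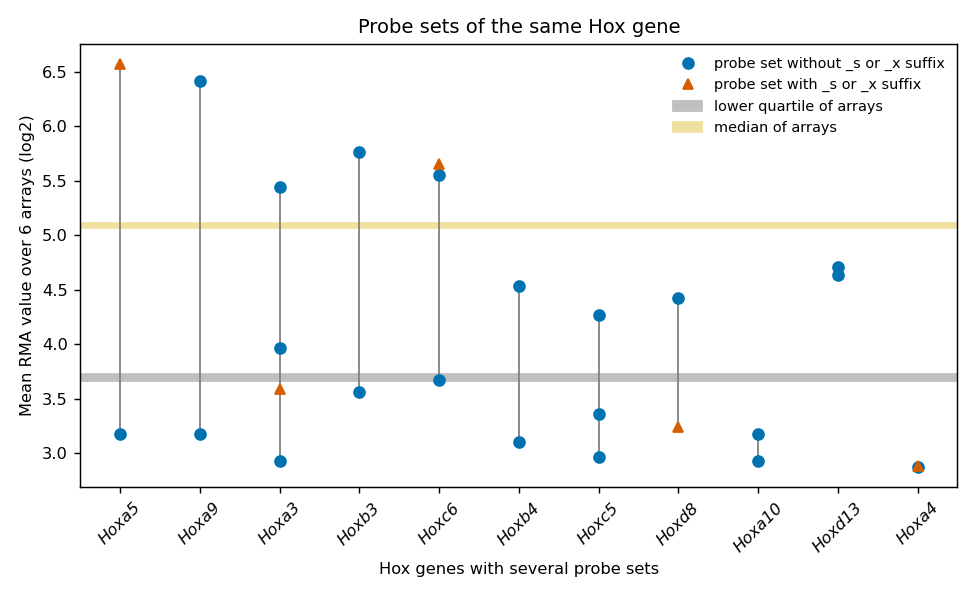
Mean RMA value (log2) over 6 arrays of each probe set of the 11 Hox genes with several, ordered by the distance between the brightest and the dimmest, with triangles for probe sets whose suffix marks shared transcripts (_s or _x) and circles for the others. The gap runs from 3.39 in Hoxa5 to 0.01 in Hoxa4, across the bands of the lower quartiles (grey) and medians (yellow) of the arrays.

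The series asks which of the cell's own genes change with added TFII-I. No Hox gene passed the comparison of induced with uninduced arrays: 0 of 33 were called by limma at an adjusted p of 0.05, beside 0% of all 45037 probe sets, and the smallest adjusted p of a Hox gene was 1.00. At an unadjusted p under 0.05 the count was also 0 of 33, beside 0.968% of all probe sets (436), and the methods' t-test gave 0 after adjustment. The estimates were small. Their median was -0.03 on the log2 scale (all genes -0.00), the largest were 0.25 (Hoxc10) and -0.22 (Hoxd13), and the median size was 0.06 against 0.07 for all genes. Every 95% interval held 0, and together they ran from -0.54 (Hoxb2) to 0.58 (Hoxc10), so larger differences lay outside them. From estimate to interval end, the median reach was 0.27.

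Hoxc10, a lumbar and hindlimb gene, was higher in the induced array of all 3 clones, by 0.12, 0.37 and 0.26 in A1, B3 and C6, from 2.72, 2.86 and 2.55 to 2.84, 3.22 and 2.82. All 6 values lay below the lower quartile. The mean difference was 0.25 ± 0.14 (SE), with an unadjusted p of 0.118 in limma. With the clone as a replicate block this p was 0.0395 (adjusted p = 1.00), the only Hox gene under 0.05 in that fit, which called 0 of 33. Beside this 1 of 33, the blocked limma fit had 194 of 18193 genes and 847 of 45037 probe sets under an unadjusted p of 0.05. Hoxd13 was lower in all 3 clones, by -0.12, -0.21 and -0.32, a mean of -0.22 ± 0.13 (SE). Its second probe set was at -0.26, 0.06 and -0.27. The groups overlapped in both genes.

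Besides Hoxc10, the largest estimates upward were those of Hoxc5 (0.09), Hoxb5 (0.07), Hoxa7 (0.07) and Hoxc13 (0.06). Both other probe sets of Hoxc5 went the other way. In clone order, Hoxb5 differed by 0.30, -0.07 and -0.01, so that it was higher in A1 alone, and Hoxc13 differed by 0.20, -0.07 and 0.03. Over B3 and C6 alone both means were below 0, at -0.04 for Hoxb5 and -0.02 for Hoxc13, while Hoxc5 was at 0.04 and Hoxa7 at 0.07. After Hoxd13, the largest estimates downward were those of Hoxb13 (-0.19), Hoxc6 (-0.19), Hoxc9 (-0.18) and Hoxd9 (-0.14). Hoxb13 differed by -0.05, -0.05 and -0.48 in the clones, so that most of its mean came from C6, and Hoxc6 by -0.16, 0.05 and -0.46. Hoxc9 was lower in every clone, by -0.19, -0.08 and -0.27. Over B3 and C6 alone Hoxc10 was at 0.31, Hoxd13 at -0.26, Hoxb13 at -0.26, Hoxc6 at -0.21, Hoxc9 at -0.18 and Hoxd9 at -0.05. None of these was past the threshold under any alternative tried.

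By direction, 11 of 33 Hox genes were higher and 22 lower in the mean of the clones. All genes split into 8959 higher and 9234 lower, and the 38 olfactory receptor genes into 14 higher and 24 lower. In Hoxd 7 of 8 were lower and in Hoxc 5 of 7 were higher. All 3 clones moved the same way in 9 Hox genes (27.3%), 3 upward (Hoxa7, Hoxc5 and Hoxc10) and 6 downward (Hoxb2, Hoxb13, Hoxc9, Hoxd1, Hoxd11 and Hoxd13). The share was 16.7% of all genes, 22.6% of the 2178 genes below the lower quartile on every array and 28.9% of the olfactory receptor genes. Over B3 and C6 alone, 11 Hox genes were again higher and 22 lower, but 6 had changed sign (Hoxa4, Hoxb3, Hoxb5, Hoxb9, Hoxc13 and Hoxd3). These 2 clones moved the same way in 21 of 33 Hox genes (63.6%) and in 62.4% of all genes. The groups did not overlap in 1 Hox gene. Hoxd11 was lower on all induced arrays, by -0.24, -0.02 and -0.10, with an unadjusted limma p of 0.223 and values on both sides of the lower quartile. Its mean was -0.12, and -0.06 over B3 and C6 alone. Over all genes 1.5% were higher without overlap, where the Hox count was 0 of 33, and 1.76% were lower, where it was 1 of 33.

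**Figure D4:**
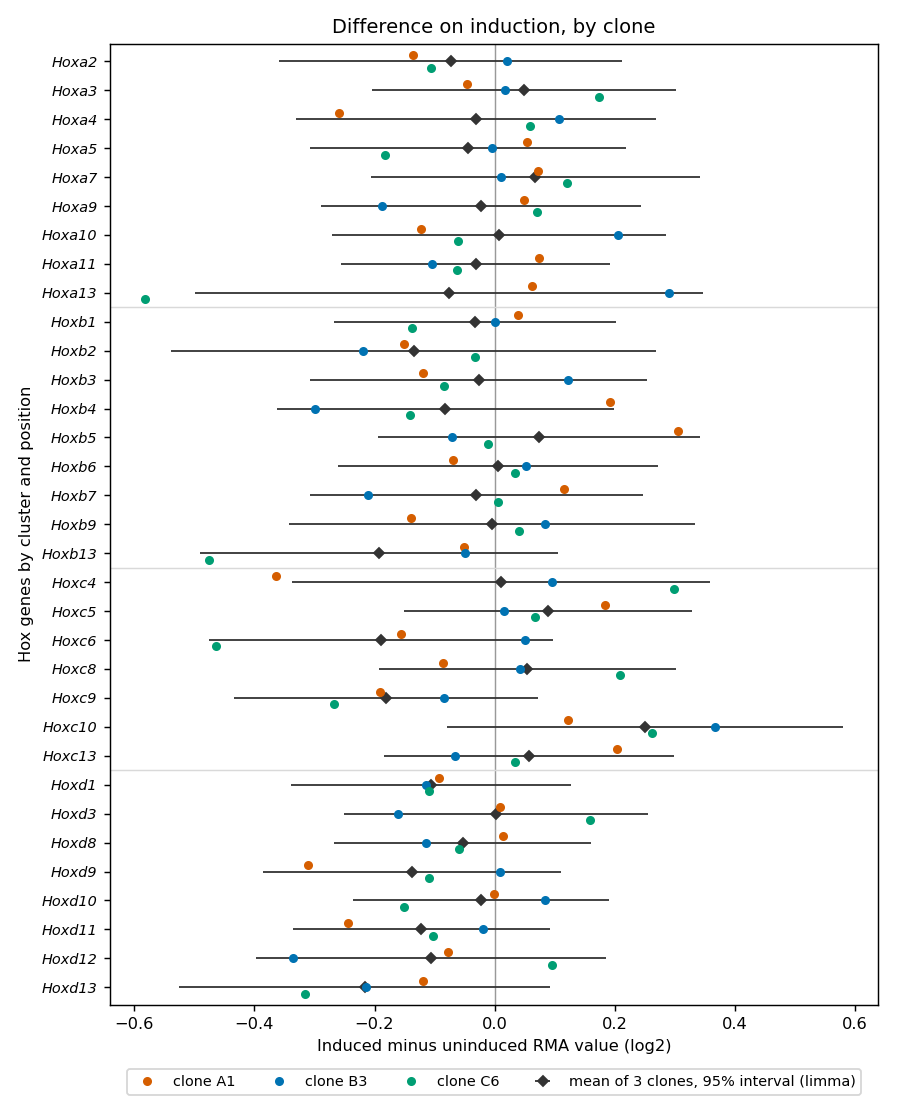
Induced minus uninduced difference (log2) of 33 Hox genes by cluster and position, with 1 coloured point per clone and the mean of 3 clones with its 95% limma interval in black. Every interval crosses 0, and the points of the clones fall on both sides of 0 for 24 of the 33 genes.

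The clones were then set against each other. The difference of A1 departed from those of B3 and C6 at 1219 probe sets (2.71% of all tested, adjusted p under 0.05 in limma), of which 0 were Hox genes. A1 was set apart because its opposite running had been seen in these same arrays, so the calls describe them and are no independent evidence. Here a single difference faced those of B3 and C6, whose spread, pooled with that of other probe sets, set the error. Hoxc4 had the smallest p: the clones A1, B3 and C6 differed by -0.36, 0.10 and 0.30 (unadjusted p = 0.0163, adjusted p = 0.171). A dimmer probe set of Hoxc5 (mean 3.36) differed by -0.59, 0.24 and 0.08 (adjusted p = 0.0736), while the brightest of the same gene differed by 0.18, 0.02 and 0.07. For Hoxa13 the clone that differed most from the others was C6, at 0.06, 0.29 and -0.58 (unadjusted p = 0.0186 in the same kind of limma test). That test called 0 of all probe sets for C6 and 0 for B3. An unadjusted p under 0.05 was reached by 1 of 33 Hox genes in the test of A1 and 1 of 33 in that of C6. Over all 18193 genes the counts were 3270 and 423.

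The opposite running of A1 was also read in the Hox genes, with no test. Across the 33, the differences of A1 correlated at r = -0.15 with those of B3 and 0.04 with those of C6, and B3 with C6 at -0.00. In the 2178 genes below the lower quartile on all arrays the values were -0.03, 0.02 and -0.01, and in the 17168 probe sets averaging 6 or more they were -0.64, -0.76 and 0.67. These are descriptions over genes that share the same 6 arrays. A1 moved against both other clones in 12 Hox genes (36.4%), against 45.5% of all genes. B3 did so in 10 (30.3%, against 18.0% of all genes) and C6 in 2 (6.06%, against 18.9%). With A1 left out and B3 and C6 as the replicate block, limma called 981 of 45037 probe sets, and 0 of 33 Hox genes. A1 was left out because its opposite running had been seen in these same arrays. The calls therefore rest on 2 clones chosen in that way.

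Irrespective of induction, the 3 clones differed in level at 509 probe sets (1.13%, limma F test over the clone terms), and 0 of 33 Hox genes were among them. This count, of 45037 probe sets tested, was unstable. It was 3838 and 3364 without the uninduced or induced array of A1, and 11 and 13 without those of B3. Without those of C6 it was 117 and 108, and 0 of 33 Hox genes were called each time. Hoxb2 had the smallest p. Its mean over both arrays of a clone came to 4.36 for A1, 4.80 for B3 and 4.35 for C6 (unadjusted p = 0.0107, adjusted p = 0.196). Hoxb9 averaged 4.65, 4.57 and 4.28 (unadjusted p = 0.0429, adjusted p = 0.344). These were the 2 of 33 Hox genes with an unadjusted p under 0.05 in this F test. Over all genes 3137 of 18193 were under it, and over all probe sets 6192 of 45037, so Hoxb2 and Hoxb9 do not stand out from the background. B3 held the highest mean in 19 of 33 Hox genes (57.6%), including 7 of 9 in Hoxa and 7 of 9 in Hoxb but 1 of 8 in Hoxd. The share was 39.4% over all genes, 46.0% over the genes below the lower quartile on all arrays and 76.3% over the olfactory receptor genes. The lower quartile itself was highest on the arrays of B3, at 3.72 and 3.73, against 3.66 on both arrays of A1. The part of this array-wide shift in the Hox values was not tested.

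The regulators of the clusters were read from lists of known members. Polycomb repressive complex 2 (PRC2), which deposits the silencing mark H3K27me3, had all 12 listed genes above the median of every array, with Rbbp4 at 12.80, Rbbp7 at 12.71, the core subunit Eed at 12.27 and the methyltransferase Ezh2 at 10.96. All 17 measured genes of PRC1, which binds that mark and compacts chromatin, were above the lower quartile on every array, led by Phc1 (11.89) and the ubiquitin ligase Rnf2 (11.16). The opposing group of Trithorax genes and H3K27 demethylases had 13 of 13 above the median, with Dpy30 at 12.30 and Ash2l at 11.74. On induction 0 of these 42 genes passed the limma test, and their medians were 0.06, -0.08 and 0.00.

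Some of these regulators were called in the test of A1 against the other clones. Epop, a PRC2 cofactor of ES cells, differed by 1.15, -0.90 and -1.77 in A1, B3 and C6. Pcgf2, a PRC1 subunit, differed by 0.71, -0.65 and -1.48. The methyltransferase genes Kmt2b and Setd1a differed by 0.76, -0.49 and -0.84 and by 0.54, -0.42 and -0.49. These were the 4 called of 42, in a test that called 2.71% of all probe sets, 5.47% of those averaging 6 or more and 0 of 33 Hox genes. Among the 12 embryonic stem cell markers the same test called 1, Esrrb, a nuclear receptor of pluripotent cells, at 0.51, -0.36 and -0.65. Yaf2 of PRC1 was the 1 of 42 called in the F test of clone levels (adjusted p = 0.0444), which called 1.13% of all probe sets and only 11 or 13 without an array of B3.

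The partners and inputs of Hox genes were mixed in level. Of 8 measured TALE genes, 7 were above the lower quartile on all arrays, beside 82.2% of all genes. Pbx2 was at 8.87 and Pknox1 at 7.89, and Meis1 was above it on 3 arrays. Pknox2 differed by -0.35, -0.44 and -0.64 in A1, B3 and C6. Its unadjusted p in limma was 0.00141 and its adjusted p 1.00. Of 6 caudal and ParaHox genes, relatives of the Hox clusters, 4 were above the lower quartile on all arrays, with Cdx1 at 5.03 and Cdx2 at 4.91. Cdx4 lay below it on every array, at a mean of 2.71.

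In the retinoic acid pathway 15 of 17 measured genes were above the lower quartile on all arrays, beside 82.2% of all genes. The receptor genes Rarg (10.08) and Rxrb (9.40) were bright, and Rarb, itself a classical retinoic acid target, was at 3.63, above the lower quartile on 2 arrays. Aldh1a1, a retinoic acid synthesizing enzyme, lay below it on all arrays (3.20), and Cyp26a1, which degrades retinoic acid, was at 5.52. On induction 0 of 17 passed. The test of A1 called 2 of 17, beside 2.71% of all probe sets and 5.47% of those averaging 6 or more. These were Rara and Rarg, at 0.57, -0.72 and -0.94 and 0.61, -0.59 and -0.69 in A1, B3 and C6. The F test of clone levels, whose calls depended on single arrays, took in 2 of 17, Crabp1 and Stra8, beside 1.13% of all probe sets (limma, adjusted p = 0.0444 and 0.0128).

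Genes that flank the clusters were read beside them. Of 17 measured, 16 were above the lower quartile on all arrays, beside 82.2% of all genes. A mean of 8 or more was reached by 8 of them, beside 30.2% of all genes and 0 of 33 Hox genes. Cbx5 (11.37), Hnrnpa1 (10.90) and Copz1 (10.76), of the Hoxc side, and Hibadh (10.59), of the Hoxa side, were the brightest. The homeobox genes Evx1 and Evx2, which sit directly beside Hoxa13 and Hoxd13, were at 4.59 and 5.42. Jazf1 was below the lower quartile on all arrays. On induction 0 of 17 passed, and Calcoco1 was the 1 called in the test of A1, at 0.79, -0.59 and -1.46. That is 1 of 17, beside 2.71% of all probe sets and 5.47% of those averaging 6 or more.

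Of 8 measured upstream inputs of posterior identity, 5 were above the lower quartile on all arrays, led by the insulator protein gene Ctcf (10.36) and Nr6a1 (8.84), a nuclear receptor of trunk development. Egr2, which activates Hox genes in the hindbrain, lay below it on all arrays (3.10), and Fgf8 and Tbx6 were above it on 5 and 4 arrays. On induction 0 of 8 passed. Markers of the neural and mesodermal lineages, in which Hox genes come on, were 8 of 9 and 8 of 9 above the lower quartile on all arrays. Their median signals were 5.38 and 5.37. Over all genes 82.2% were above it on every array, with a median signal of 6.22, so these counts do not set the markers apart. On induction 0 of either list passed.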

How the data were processed

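Total RNA of 6 cultures was hybridized by the authors to Affymetrix whole-genome mouse arrays. The deposited values are on the log2 scale, 1 per probe set, from the authors' robust multiarray average (RMA), and the submitters' notes name affy and RMA without versions. They were used as they stood. Of 45101 probe sets, 64 Affymetrix controls were left out. In the platform annotation 34945 probe sets had 1 symbol, 932 several and 9160 none, and none was named from several.

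Groups and clones came from the sample titles. Induced and uninduced arrays were compared in R 4.3.3 by limma 3.58.1 (lmFit, then eBayes; two-sided p-values, adjusted by Benjamini-Hochberg over 45037 probe sets, threshold 0.05), tested on simulated data first. The main fit has no clone term, as in the methods, whose t-test was an alternative. Every clone gave 1 array to each group, so the arrays are paired by clone (deviations correlated at 0.19 for A1, 0.53 for B3 and 0.31 for C6), and clone entered as a replicate block in an alternative fit. In the main fit the p-values measure the spread between clones within a group. In the blocked fit and in the F test of clone levels, the error is what remains after clone and induction terms. In the test of A1 it comes from B3 and C6 and from pooling across probe sets. The number of arrays limits the precision. The members, gene lists and tests were chosen with earlier results of these data known. Genes were named by level (above the lower quartile on all 6 arrays, nearest to it, or the highest and lowest of a cluster), by a test, or by the 5 largest mean differences in each direction, and up to 4 list members by level or smallest p. List members that passed a test of clones were named after their values were seen.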

Additional observations from a re-analysis of the deposited data

How the results depend on the processing

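The comparison of induced with uninduced arrays called 0 Hox genes with clone as a replicate block, and 0 under every other alternative of test, variance model, normalization, filter, probe set or left-out array or clone that was run. Over all probe sets it called 981 without A1 in the blocked fit and 0 in the others. The test of A1 called 0 Hox genes under its 5 alternatives and between 458 (1 probe set per gene) and 2355 (mean of at least 6) probe sets in all. Leaving out an array there leaves no residual degrees of freedom, so it was not run. The F test of clone levels called 0 Hox genes throughout. Its count over all probe sets ran from 11 to 3838 with 1 array left out and was 108 with a mean of at least 6. The cause was not tested.

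The number of Hox genes above the lower quartile on all arrays was 21 to 22 with 1 array left out, 8 against each array's median, which is a higher bar, and 13 with the dimmest probe set of each gene. Of 522 differences of the 33 Hox genes under the alternatives, 69 changed sign, in 23 genes, none of them past the threshold in either fit. With 3 arrays a group, differences within the intervals given were not detectable.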
